A study of Mus musculus with 6 samples.

Results

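The genes of the mouse major histocompatibility complex, named H2 in the mouse, were followed through 5 malignant mesotheliomas measured by array comparative genomic hybridisation (aCGH). Members were the non-control probes of chromosome 17 whose gene name in the denser ARF-128 array begins with H2-. This gave 37 of 235402 probes and 24 of the 24939 autosomal genes tested. The rule used names and positions, not ratios, but was chosen with earlier results of these data known. They covered 3629 kb, from 32017559 to 35646141 in mm7. There were 14 class I genes of the nonclassical kind (class Ib) with 21 probes between 33440819 and 35646141. The 8 class II genes had 14 probes between 32173735 and 32421763. H2-Ke2 and H2-Ke6 carry an H2 name from their position and encode no antigen-presenting protein. No probe carried the name of a classical class I gene, H2-K1 or H2-D1, so these results do not describe them.

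In aCGH, differently labelled tumour and reference DNA compete for the same probes. On each array Cy5 marked the tumour and Cy3 the C57BL/6J reference, so a positive log2 ratio means more signal from the tumour. Gain of 1 copy by every cell of a diploid tumour would give 0.58, and loss of 1 copy -1. The study describes primary mesothelioma cells of 4 Arf(+/-) mice, which carry 1 inactivated copy of the Arf tumour suppressor. The titles name 5 tumours, ARF-112, ARF-129, ARF-104, ARF-110 and ARF-128, and the labels of ARF-104 give no cell type. Which title lies outside the 4 mice, the strain of the mice, and their age and treatment as individuals are not given in the sources used here, although the title of the study speaks of asbestos-induced tumours. ARF-112, ARF-129, ARF-104 and ARF-128 were measured on a denser design with all 37 probes. ARF-110, and ARF-128 a second time, were measured on a sparser design with 19 of the probes from 15 of the genes. All 5 tumours form a single group and were taken as separate animals, and p-values measure the spread between these tumours alone.

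The complex is the most variable gene region of the mammalian genome. Class I molecules pair with beta-2-microglobulin and present peptides from inside the cell to CD8+ T cells and natural killer cells, and the nonclassical ones have narrower or other ligands. Class II molecules present peptides taken up from outside to CD4+ T cells, with H2-DM and H2-O controlling the loading. Each inbred strain carries a haplotype, which is a set of alleles and can be shared between strains. Haplotypes differ in sequence and can differ in the number of class I genes, and C57BL/6J carries haplotype b. Tumours can lose class I genes and so escape T cells.

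The probes behind the largest differences are shown here, because each reading rests on whether this short run of DNA pairs equally well and is equally abundant in tumour and reference. They come from the deposited array files, from which the strand was not established, and no letters are marked.
H2-DMb1, chr17:32229373-32229432: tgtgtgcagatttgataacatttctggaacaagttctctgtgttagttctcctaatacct
H2-DMb1, chr17:32234359-32234415: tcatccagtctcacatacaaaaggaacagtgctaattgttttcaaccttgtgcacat
H2-Ea, chr17:32421707-32421763: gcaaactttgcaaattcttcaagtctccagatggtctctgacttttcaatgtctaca
H2-Q2, chr17:33440819-33440871: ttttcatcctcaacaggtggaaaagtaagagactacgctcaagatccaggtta
H2-M10.4, chr17:34610186-34610245: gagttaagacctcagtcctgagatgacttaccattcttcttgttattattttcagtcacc
H2-Q8, chr17:33492130-33492174: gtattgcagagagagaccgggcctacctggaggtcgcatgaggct
H2-T3, chr17:34338067-34338117: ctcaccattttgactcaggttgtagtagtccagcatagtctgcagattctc
H2-M2, chr17:35646082-35646141: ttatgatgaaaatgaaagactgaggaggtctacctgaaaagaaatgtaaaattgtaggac

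The 37 probes were 45 to 60 bases long. The longest run that any of them shared with another probe of the array was 18 bases, and 16 of the 37 shared a run of at least 16. None held a site of AluI or RsaI, the enzymes that cut the DNA before labelling, against 0.0344% of all probes. The array's annotation listed accessions of over 1 gene for 6 of the probes, among them H2-DMb1 with H2-DMb2 and H2-Q8 with H2-Q7, so the copy read by those probes is uncertain. Of 30 accessions, 26 matched the RefSeq table of GRCm38.p6, which was used for names only and gives H2-Ke2 as Pfdn6. Whether a probe lies in an exon or an intron was not established here.

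Every member spot was well above background in both channels on every array, and none was saturated or marked as an outlier. The median red signal of the member spots was 4.40 times the background on the denser array of ARF-128 and 7.47 to 15.6 times on the other arrays. The probe noise of chromosome 17, the SD of log2 ratios taken from neighbouring probes, was 0.78 on that array, 0.15 in ARF-110 and 0.37 to 0.48 on the other denser arrays. ARF-128 therefore gave the least precise single values.

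The H2 region as a whole stood at different levels in different tumours. In ARF-129 chromosome 17 formed a single gained segment with a mean of 0.30 that held all 24 genes. In ARF-110, and on both arrays of ARF-128, the chromosome was also a single segment, with means of 0, 0 and -0.07 and no call. A call here means a segment mean at or past 0.25 in either direction.

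In ARF-104 a boundary divided the complex. The 10 genes of class II and the H2-Ke pair lay in a segment with a mean of 0 and no call, and all 14 class I genes lay in a gained segment with a mean of 0.36 that ran to 83140332. The boundary fell between 32726200 and 32730809, in the stretch between class II and class I, and its position was the same with the segmentation penalty multiplied by 3, 5 or 10. At a multiplier of 3 there were also 2 boundaries among the H2 genes in ARF-110 and 1 in ARF-129, which were absent at 5 and 10. Among probes of other genes within 1 Mb, the 171 before the boundary had a median of 0 (SD over probes 0.43) and the 191 after it a median of 0.47 (SD over probes 0.39). In the other 4 tumours the medians on the same sides were 0.16 and 0.28 in ARF-112, 0.36 and 0.51 in ARF-129, 0.06 and 0.07 in ARF-110, and -0.07 and -0.11 in ARF-128. These are descriptions of single arrays, without a test. The median ratio of the H2 genes in ARF-104 was 0.09 for class II (8 genes, -1.07 to 0.28) and 0.38 for class I (14 genes, -0.72 to 1.18).

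The boundary cut through the class III region, which lies between the clusters and holds complement, TNF family and stress protein genes. Of the class III genes listed for this work, 7 lay before it with a median ratio in ARF-104 of 0.02, and 34 after it with a median of 0.44. In ARF-129 the same genes had medians of 0.50 and 0.43, with no such step. In ARF-112 a boundary lay within class I, between 34461978 and 34472171, with a mean of 0.14 before it and 0.02 after it, and neither side was called.

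**Figure D1:**
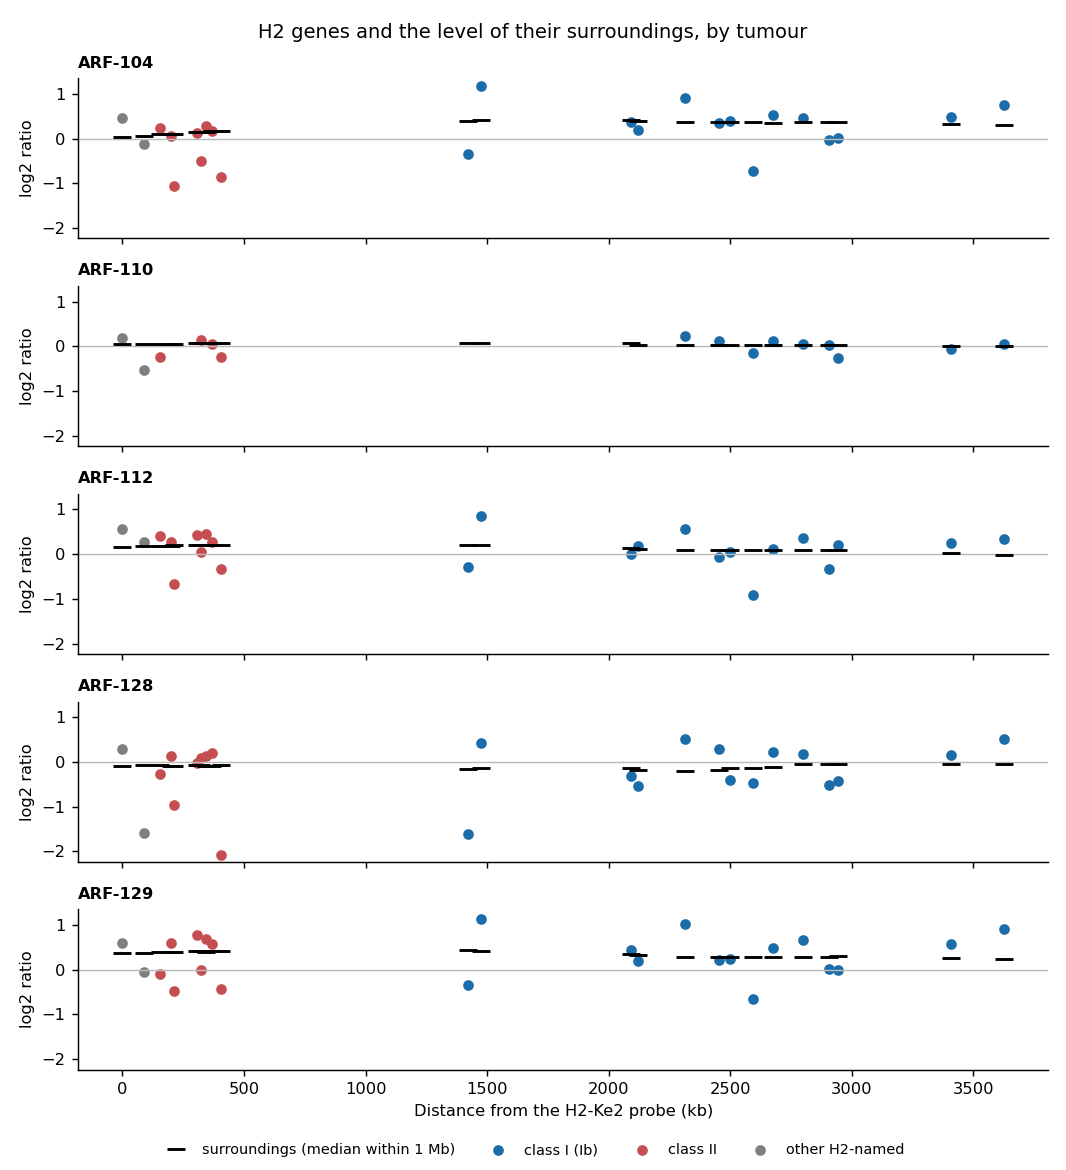
Log2 ratio of tumour over C57BL/6J DNA for each H2 gene (dots, mean of the gene's probes) against distance in kb from the H2-Ke2 probe, with the median of probes of other genes within 1 Mb of each gene (black dashes), in one panel per tumour. In ARF-104 the dashes rise from 0.04 at the left end to 0.42 over class I. In ARF-129 they lie between 0.24 and 0.43 throughout, and single genes lie farthest from the dashes in the panels of ARF-128 and ARF-104, where the lowest differences are -1.99 and -1.17.

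To separate a gene from the level of its stretch of chromosome, its ratio was set against the median of probes of other genes within 1 Mb, called its surroundings. The surroundings of the members had medians of 0.15 in ARF-112, 0.36 in ARF-129, 0.33 in ARF-104, -0.09 in ARF-128 and 0.05 in ARF-110. Windows of class II genes in ARF-104 reached past the boundary, so their surroundings mixed both sides. Against their surroundings the members lay on both sides in every tumour. In ARF-112, 9 of 24 were below and 15 above. The counts below and above were 12 and 12 for ARF-129, 13 and 11 for ARF-104, and 11 and 13 for ARF-128. In ARF-110, 8 of 15 were below and 7 above.

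The median of the genes' mean differences was 0 over the 24 members, 0 over the 14 class I genes, -0.01 over the 8 class II genes and -0.02 over all 24938 genes tested. Restricted to genes measured in all 5 tumours, the medians were 0.17 for class I and -0.16 for class II. With probes on both designs only they were 0.13 and -0.21. Both restrictions left 9 class I and 4 class II genes. The medians of single tumours ran from 0 to 0.05 for class I and from -0.16 to 0.11 for class II. The size of the differences, regardless of sign, had a median of 0.21 for the members and 0.16 for all genes. The SD of the differences over the genes of a tumour was 0.40 for members against 0.32 for all genes in ARF-112, 0.50 against 0.39 in ARF-129, 0.51 against 0.30 in ARF-104, 0.22 against 0.17 in ARF-110, and 0.70 against 0.60 in ARF-128. The members thus had the wider spread in all 5 tumours, as a description without a test. A gene's value averages its probes, and the 24 members had 37 probes, most of them only a single one. The part of probe number in this spread was not tested.

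Single genes did differ. By limma with Benjamini-Hochberg adjustment over all genes, 5 of the 24 members were lower than their surroundings (20.8%) and 5 were higher (20.8%), where 12.4% of all genes were lower and 9.66% higher. In class I, 3 of 14 were lower and 3 higher. In class II, 2 of 8 were lower and 1 higher. With 22.1% of all genes called in either direction, calls of this kind were common on these arrays. Leaving out any of ARF-104, ARF-112 and ARF-129 removed all 10 calls. In each of those 3 fits no gene of the genome was called. At an unadjusted limma p under 0.05 there were, in that order, 5, 7 and 5 members lower and 6, 5 and 4 higher. In the main fit 6 members were lower and 8 higher at that threshold, beside 5851 and 4648 of all 24938 genes. The share of all genes at that threshold in the 3 fits is not given here, so the counts show nothing particular to the members.

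The arrays were scanned on 3 days, ARF-110 with the sparser array of ARF-128, the denser arrays of ARF-112, ARF-129 and ARF-104 together, and the denser array of ARF-128 alone. With scan day as a random block no gene was called (limma adjusted p of the 10 genes 0.282 to 0.427). At an unadjusted p under 0.05 there were 4 members lower and 2 higher. The share of all genes at that unadjusted threshold is not given for this fit either. In the 3 tumours scanned together, all 10 had the same direction as in the full set. Their limma adjusted p there was between 0.00178 and 0.0144, with 55.9% of all genes called. These 3 tumours entered the fit that picked the 10 genes, so the shared direction was largely set in advance and is no separate evidence. Every tumour was set against C57BL/6J DNA in the same dye orientation, and no normal DNA of the tumour-bearing mice was analysed here. A difference between tumour and normal cells, one between the mice and C57BL/6J, and one between the dyes therefore cannot be told apart at a single gene.

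**Figure D2:**
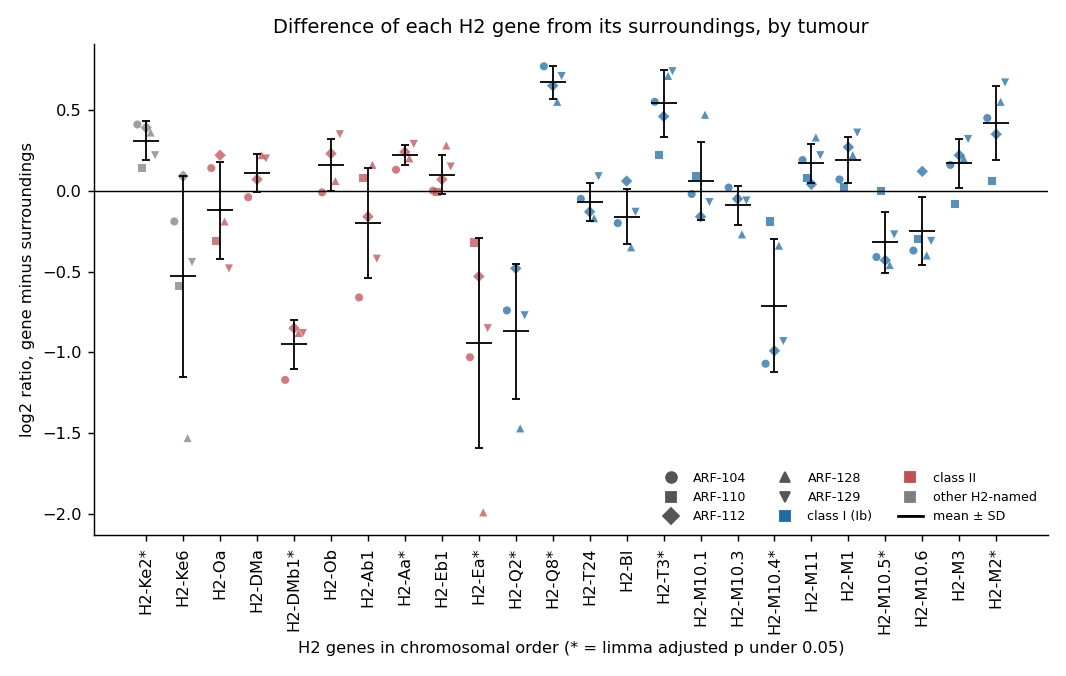
Log2 ratio of each of the 24 H2 genes minus the median of its surroundings (vertical axis), with genes in chromosomal order, one symbol per tumour and the mean ± SD in black. The genes marked with an asterisk had a limma adjusted p under 0.05. H2-DMb1 lies between -1.17 and -0.85 in its 4 tumours and H2-Q8 between 0.55 and 0.77, while most other genes lie around 0.

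Among the class II genes, H2-DMb1 had the lowest mean difference. It encodes the beta chain of H2-DM, which exchanges the invariant chain fragment for peptide on class II molecules. Its difference was -0.85 in ARF-112, -0.88 in ARF-129, -1.17 in ARF-104 and -0.88 in ARF-128, with no probe on the array of ARF-110. All 4 tumours were well below their surroundings, with a mean of -0.95 ± 0.15 (SD, n = 4, limma adjusted p = 0.0165), which is 51.9% of the surrounding level. H2-DMb1 was also below the C57BL/6J reference itself (adjusted p = 0.0131).

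The even gene mean of H2-DMb1 hid probes that disagreed. The probe at 32229373 was at -1.20 in ARF-112, -1.41 in ARF-129, -1.82 in ARF-104 and -0.10 in ARF-128. The probe at 32234359 was at -0.51, -0.34, -0.53 and -1.66 in the same order. The first was the lower of the pair in 3 tumours and near its surroundings in ARF-128, where the second was lowest. Their means were -1.13 ± 0.73 (SD, n = 4, adjusted p = 0.0253 over all probes) and -0.76 ± 0.60 (adjusted p = 0.0463).

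The partner gene H2-DMa, which encodes the alpha chain of H2-DM, had probes that went opposite ways. The probe at 32216265 was at 0.53, 0.85, 0.16 and 0.95 in ARF-112, ARF-129, ARF-104 and ARF-128. The probe at 32219121 was at -0.39, -0.45, -0.24 and -0.52. The gap lay within 2914 bases and held in all 4 tumours, with means of 0.62 ± 0.36 (SD, n = 4, limma adjusted p = 0.0258) and -0.40 ± 0.12 (adjusted p = 0.0226). The gene as a whole, at 0.11 ± 0.12, was not called (adjusted p = 0.262). H2-DMa lay outside the rule for named genes and is given because of this split, after its values were seen.

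H2-Ea encodes the alpha chain of the class II molecule I-E. Mice of haplotype b, C57BL/6J included, carry a deletion at the start of this gene and make no I-E. Its single probe differed from the surroundings by -0.53 in ARF-112, -0.85 in ARF-129, -1.03 in ARF-104, -1.99 in ARF-128 and -0.32 in ARF-110. All 5 tumours were below, with a mean of -0.94 ± 0.65 (SD, n = 5, limma adjusted p = 0.0389). The sparser array of ARF-128 gave -0.63 for the same probe, and without ARF-128 the mean was -0.68 (adjusted p = 0.0216). With normexp background correction in place of the software's subtraction the mean was -0.21 (adjusted p = 0.0181), and with loess normalization -0.73 (adjusted p = 0.116).

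The other classical class II genes had smaller mean differences than H2-Ea. H2-Aa, the alpha chain of I-A, was at 0.24 in ARF-112, 0.29 in ARF-129, 0.13 in ARF-104 and 0.20 in ARF-128. Its mean of 0.22 ± 0.06 (SD, n = 4) was just under the threshold before rounding (limma adjusted p = 0.05) and over it in 16 of 21 other settings, with 0.08 by normexp (adjusted p = 0.0912). One of its probes carried the difference, at 0.45 ± 0.18 (adjusted p = 0.0223 over all probes), while the other was at -0.02 ± 0.13 (adjusted p = 0.847). The probe at 32365541 was at 0.39, 0.58, 0.22 and 0.62 in the tumour order just given. The probe at 32362385 was at 0.09, -0.01, 0.04 and -0.21. The probes lay closest in ARF-104 and farthest apart in ARF-128.

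H2-Ab1, the beta chain of I-A, was at -0.16 in ARF-112, -0.42 in ARF-129, -0.66 in ARF-104, 0.16 in ARF-128 and 0.08 in ARF-110. The value in ARF-110 rests on the probe at 32342100 alone. The tumours lay on both sides, with a mean for H2-Ab1 of -0.20 ± 0.34 (SD, n = 5, limma adjusted p = 0.277). In the 3 tumours scanned together it was at -0.41 (adjusted p = 0.0235). That setting was added after seeing the data, and 55.9% of all genes were called in it. In the other 22 of 23 settings H2-Ab1 stayed without a call.

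H2-Eb1, the beta chain of I-E, was at 0.07 in ARF-112, 0.15 in ARF-129, 0 in ARF-104, 0.28 in ARF-128 and -0.01 in ARF-110. The mean was 0.10 ± 0.12 (SD, n = 5, limma adjusted p = 0.236). Its 3 probes had means of 0.07, 0.40 and -0.18, and none of them was called. In the same tumour order, the probe at 32386889 was at 0.15, 0.18, -0.07, 0.05 and 0.07. The probe at 32389865 was at 0.35, 0.42, 0.29, 0.96 and -0.01, highest in ARF-128. The probe at 32391057 was below its surroundings in all 5 tumours, at -0.27, -0.15, -0.21, -0.19 and -0.07. H2-Oa at -0.12 ± 0.30 and H2-Ob at 0.16 ± 0.16, the chains of H2-O, were not called either (adjusted p = 0.437 and 0.197).

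**Figure D3:**
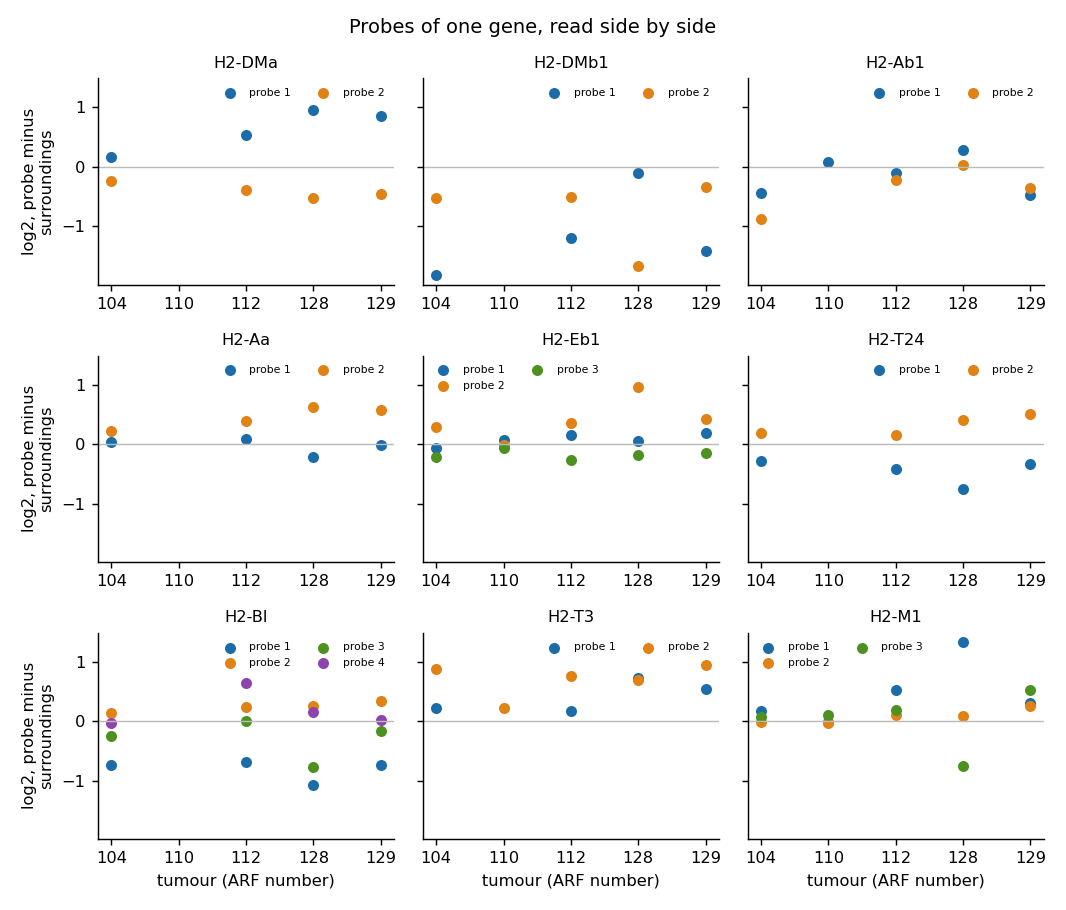
Log2 ratio of each probe minus its surroundings (vertical axis) in each tumour (horizontal axis, ARF number), for the 9 H2 genes read by more than 1 probe, with probes numbered and coloured in chromosomal order within a gene. The probes of H2-DMa stay on opposite sides of 0 in all 4 tumours. Those of H2-DMb1 are both below 0 but change places in ARF-128, and those of H2-T3 are all above 0.

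Among the class I genes of the Q region, H2-Q2 and H2-Q8 lay on opposite sides although their probes are near neighbours. H2-Q2 was at -0.48 in ARF-112, -0.77 in ARF-129, -0.74 in ARF-104 and -1.47 in ARF-128. All 4 were below their surroundings, with a mean of -0.87 ± 0.42 (SD, n = 4, limma adjusted p = 0.0296). With normexp the mean was -0.17 (adjusted p = 0.0686) and with loess -0.47 (adjusted p = 0.201).

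H2-Q8 was at 0.65 in ARF-112, 0.71 in ARF-129, 0.77 in ARF-104 and 0.55 in ARF-128. It was the highest of the 24 genes by mean difference and among the most even, with 0.67 ± 0.10 (SD, n = 4, limma adjusted p = 0.0172), or 159% of the surrounding level. It was also above the reference (adjusted p = 0.0134). Its probe, 45 bases long, had the highest GC content of the 37, at 60% against a median of 37% over all probes. When the array's own trend with probe GC content was removed, the mean was 0.24 (adjusted p = 0.0553), so the size of the difference moved with this correction.

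In the T region, H2-T3 encodes the thymus leukaemia antigen, a class Ib molecule of the gut epithelium that binds CD8alphaalpha. It was at 0.46 in ARF-112, 0.74 in ARF-129, 0.55 in ARF-104, 0.71 in ARF-128 and 0.22 in ARF-110. All 5 were above their surroundings, with a mean of 0.54 ± 0.21 (SD, n = 5, limma adjusted p = 0.0225), and above the reference (adjusted p = 0.0164). Both of its probes were called higher, at 0.42 ± 0.27 (n = 4, adjusted p = 0.0454) and 0.70 ± 0.29 (n = 5, adjusted p = 0.00963). The sparser design held only the probe at 34338067, so the value in ARF-110 rests on it alone. For that probe the sparser array of ARF-128 gave 0.95 where the denser gave 0.69. The mean was 0.33 with loess (adjusted p = 0.063) and 0.41 with the GC trend removed (adjusted p = 0.03).

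The other T region genes showed no call, and again their probes disagreed. H2-Bl was at -0.16 ± 0.17 over 4 probes spread across 90435 bases. Accessions listed for these probes matched H2-Bl, Gm6034 and H2-T22, so they may read those other genes as well. The probe at 34138334 was at -0.68, -0.73, -0.74 and -1.08 in ARF-112, ARF-129, ARF-104 and ARF-128, and was called lower (adjusted p = 0.00794). The highest of the other probes of H2-Bl, at 0.24 ± 0.08, was not called. H2-T24 was at -0.07 ± 0.12, with a probe at -0.45 ± 0.21 that was called lower (adjusted p = 0.0259) and one at 0.31 ± 0.17 that was not (adjusted p = 0.0549).

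The M region lies farthest from class II. Its M10 genes are transcribed in sensory neurons of the vomeronasal organ. H2-M10.4 was at -0.99 in ARF-112, -0.93 in ARF-129, -1.07 in ARF-104, -0.34 in ARF-128 and -0.19 in ARF-110. The 3 tumours scanned together were lowest and the other two closer to their surroundings, and the sparser array of ARF-128 gave -0.45. The mean was -0.71 ± 0.41 (SD, n = 5, limma adjusted p = 0.0296), and -1 within the 3 tumours scanned together. H2-M10.4 was also below the reference (adjusted p = 0.018). With normexp the mean was -0.51 (adjusted p = 0.0765) and with loess -0.77 (adjusted p = 0.0597).

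H2-M10.5 was at -0.43 in ARF-112, -0.27 in ARF-129, -0.41 in ARF-104, -0.46 in ARF-128 and 0 after rounding in ARF-110. The mean was -0.32 ± 0.19 (SD, n = 5, limma adjusted p = 0.0396). The sparser array of ARF-128 gave -0.08 where the denser gave -0.46. With normexp the mean was -0.13 (adjusted p = 0.0814), with loess -0.33 (adjusted p = 0.0683) and with the GC trend removed -0.19 (adjusted p = 0.0946). The other members of the M10 family were not called, with H2-M10.1 at 0.06 ± 0.24, H2-M10.3 at -0.09 ± 0.12 and H2-M10.6 at -0.25 ± 0.21.

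H2-M2, the last of the members along the chromosome, was at 0.35 in ARF-112, 0.67 in ARF-129, 0.45 in ARF-104, 0.55 in ARF-128 and 0.06 in ARF-110. All 5 were above, with a mean of 0.42 ± 0.23 (SD, n = 5, limma adjusted p = 0.0313), and above the reference (adjusted p = 0.0328). The sparser array of ARF-128 gave 0.11, and with normexp the mean was 0.23 (adjusted p = 0.034). With loess the mean was 0.39 and the call was lost (adjusted p = 0.0654). H2-M3, which presents N-formylated bacterial peptides, was at 0.17 ± 0.15 (adjusted p = 0.115). H2-M1 at 0.19 ± 0.14 and H2-M11 at 0.17 ± 0.12 were above their surroundings in all 5 tumours without a call (adjusted p = 0.0795 and 0.0777).

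H2-Ke2, which encodes a subunit of the chaperone prefoldin, was at 0.39 in ARF-112, 0.22 in ARF-129, 0.41 in ARF-104, 0.36 in ARF-128 and 0.14 in ARF-110. All 5 were above, with a mean of 0.31 ± 0.12 (SD, n = 5, limma adjusted p = 0.0266), and above the reference (adjusted p = 0.0264). Its probe had a GC content of 47%, and the mean was 0.13 with the GC trend removed (adjusted p = 0.336) and 0.08 with loess (adjusted p = 0.393). H2-Ke6, a hydroxysteroid dehydrogenase gene, was at -0.53 ± 0.62 (adjusted p = 0.124). Its -1.53 on the denser array of ARF-128 stood against -0.07 on the sparser one.

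The direction was the same in every tumour measured for 12 of the 24 genes, 5 below their surroundings and 7 above. Of all genes 23.3% were below in every tumour and 18.9% above. Against the C57BL/6J reference without regard to surroundings, 2 members were lower, H2-DMb1 and H2-M10.4, and 4 were higher, H2-Ke2, H2-Q8, H2-T3 and H2-M2. Of all 24939 genes 8.07% were lower and 9.38% higher. The same tumours and reference DNA enter both comparisons.

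Probe by probe, 9 of the 37 were called lower than their surroundings and 7 higher, beside 19.4% and 16.8% of all probes (36.2% in either direction). The 14 class II probes included 4 lower and 2 higher, with means from -1.13 to 0.62. The 21 class I probes included 5 lower and 4 higher, from -0.87 to 0.70. Of the 9 genes read by more than 1 probe, 5 had probes with means on both sides of 0, namely H2-DMa, H2-Aa, H2-Eb1, H2-T24 and H2-Bl. The widest gaps between probes under a gene name were 1.05 in H2-Bl, whose probes have accessions of several genes, and 1.02 in H2-DMa. A further 27 probes on the array are described as histocompatibility sequences under 7 other names. Of these, 7 were lower and 6 higher, with a median of 0.05 and means from -1 to 0.75.

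The GC content of the member probes ran from 32% to 60%. On the denser arrays Pearson's r between it and the difference from surroundings was 0.39 in ARF-112, 0.11 in ARF-129, 0.28 in ARF-104 and -0.01 in ARF-128 over the 37 probes, which share an array and its reference DNA. Spearman's rho was 0.20, -0.10, 0.04 and -0.17 in the same order. Among the member probes the relation was thus weak, and it changed sign between measures in ARF-129. Over all probes of the same arrays Pearson's r was 0.19, 0.18, 0.19 and 0.08. The median difference of all probes with 30% to 35% GC was -0.15 in ARF-112, -0.18 in ARF-129, -0.14 in ARF-104 and -0.15 in ARF-128. With 45% to 50% GC it was 0.31, 0.27, 0.25 and -0.02, a shift as large as some called differences in all but ARF-128. With the GC trend removed, 2 of the 24 genes were called higher in place of 5, and 7 lower in place of 5, of which 4 were among the main 5. Of all genes, 8.24% were then higher in place of 9.66%, and 11.4% lower in place of 12.4%. The part of probe composition in the single differences was otherwise not tested.

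**Figure D4:**
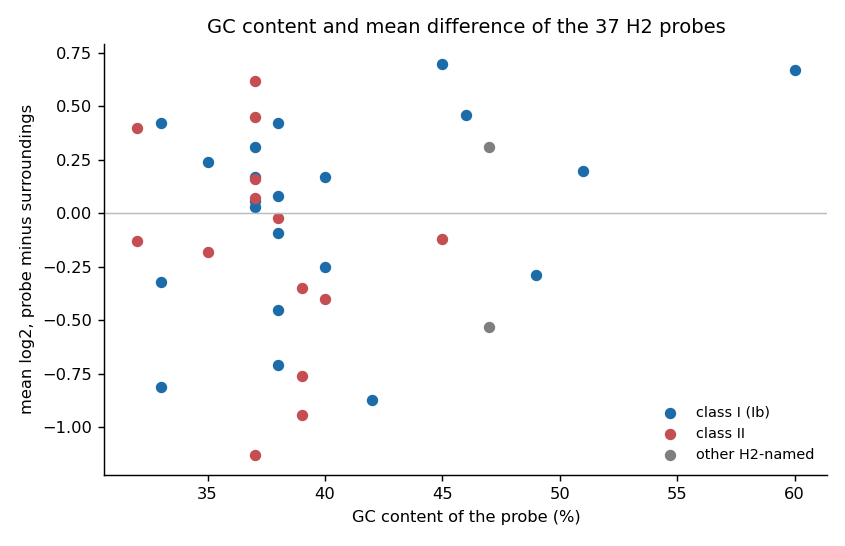
Mean log2 difference from surroundings (vertical axis) of each of the 37 H2 probes against its GC content in percent (horizontal axis), coloured by class. Probes with a GC content of 37% to 39% run from -1.13, the lowest of all, to 0.62, and the H2-Q8 probe at 60% lies alone at the right at 0.67.

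Other genes of antigen presentation, which process peptides, load them or encode class I-like molecules, lie mostly on other chromosomes. Of 40 listed, 31 were tested. Against their surroundings 5 were lower and 3 higher, with a median of -0.04, beside 12.4% and 9.66% of all genes. The called genes that lie in the class II region are Tap1 and Tap2, the subunits of the peptide transporter. Tap1 was lower in all 5 tumours, at -0.24 in ARF-112, -0.34 in ARF-129, -0.37 in ARF-104, -0.54 in ARF-128 and -0.32 in ARF-110, with a mean of -0.36 ± 0.11 (SD, n = 5, limma adjusted p = 0.0225). Tap2 was higher in all 5, at 0.35, 0.60, 0.26, 0.18 and 0.17 in the same order, with a mean of 0.31 ± 0.18 (adjusted p = 0.0373). Elsewhere, Raet1a, a ligand of the receptor NKG2D from a family of close copies, had the highest called mean at 0.63 ± 0.11 (n = 4, adjusted p = 0.0173). Tapbpl, a relative of tapasin, was lower at -0.61 ± 0.37 (n = 5, adjusted p = 0.032). These 4 were picked from the called genes after their values were seen.

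Of 54 listed class III genes, 42 were tested and 41 of them lie on chromosome 17. Against their surroundings 2 were lower and 3 higher, with a median of 0.06, beside 12.4% and 9.66% of all genes. Lst1, a leukocyte transcript, was at 0.65 ± 0.41 (SD, n = 5, limma adjusted p = 0.0343) and Ager, the receptor for glycated proteins, at 0.48 ± 0.21 (adjusted p = 0.0248). C4a, a complement gene with a near-identical copy that its probes may also read, was at 0.38 ± 0.20 (adjusted p = 0.0299). Hspa1l, a heat shock protein gene, was at -0.58 ± 0.41 (adjusted p = 0.0422). Against the reference, where the gained segments of ARF-104 and ARF-129 enter, none of the 42 was lower and 9 were higher, with a median of 0.22, beside 8.07% and 9.38% of all genes. When ARF-112, ARF-129 or ARF-104 was left out, no gene of either list was called in either comparison.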

How the data were processed

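Genomic DNA of 5 tumours was measured on 6 two-colour arrays. Per the file headers, Agilent Feature Extraction subtracted the background with spatial detrending and scaled each channel by a linear dye factor, which gave the authors the processed intensity of either colour at every spot. Its version was 8.5.1.1 for the sparser arrays, 9.5.3.1 for the denser array of ARF-128 and 9.1.3.1 for the others. The deposited log10 ratio of each spot and the value table, which holds log10 ratios for the sparser and log2 ratios for the denser design, served as alternatives. Setting each column against its array gave a correlation of 1 and the same direction. The table was not centred, with column medians of 0 (ARF-110) and 0.0185 (ARF-128) on the sparser and 0.0491 (ARF-128), 0.0317 (ARF-129), 0.02 (ARF-104) and 0.0232 (ARF-112) on the denser design. Positions are mm7, per the header of the denser ARF-128 file; for the sparser design no build is given in the sources used here, and its probes were joined by name.

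The log2 of red over green was taken, control and outlier spots were dropped, repeated probes averaged, and each array centred on its autosomal median. A gene was the mean of its probes. Surroundings were the median of at least 10 non-H2 probes of other genes within 1 Mb. Genes and probes measured in at least 3 tumours were fitted with limma 3.58.1 (intercept, eBayes, Benjamini-Hochberg over all features, threshold 0.05), so the reference DNA's own spread does not enter. Segments of at least 5 probes came from PELT, a penalised fit of means (penalty 5 log n times the squared noise, with multipliers of 3 and 10 tried after seeing the data). The 2 arrays of ARF-128 counted as 1 tumour, with the denser one used. R 4.3.3 with statmod 1.5.0 and Python 3.11.15 with pandas 2.3.3, numpy 2.4.6, numba 0.67.0, scipy 1.17.1 and matplotlib 3.10.9 were used. The scripts were tested on simulated data.

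The members and lists were chosen with earlier results of these data known. Values in every tumour are given for classical genes with a probe and for the 6 lowest and 6 highest called members, probe by probe where the probes differed in sign or by over 1, and for at most 4 called genes of each list. Members not covered by that rule were named after their values were seen. Array number limits the precision.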

Additional observations from a re-analysis of the deposited data

Results flagged for a closer look

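The difference of H2-DMb1 from its surroundings in ARF-104, -1.17, lay apart from the other 3 tumours measured, which were at -0.85, -0.88 and -0.88. The gap to the nearest was 0.92 of the range, past Dixon's 95% critical value for 4 tumours. These are gene means, and the value in ARF-128 averaged probes at -0.10 and -1.66. In ARF-104 the surroundings of H2-DMb1, at 0.11, mixed both sides of the boundary. Without ARF-104 the mean was -0.87 in place of -0.95 (limma adjusted p = 0.0864). The test was made for 24 genes, and chance alone marks about 1 in 20 groups. H2-M10.6, given above without a call and outside the rule for named genes, also passed it, with 0.12 in ARF-112 against -0.40 to -0.30 in the other tumours.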

How the results depend on the processing

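Results were recomputed under up to 23 other settings, 18 planned and 5 added after seeing the data (the deposited value table, surroundings without other histocompatibility probes, probes on both designs only, only the tumours scanned together, and the GC trend removed). Of 256 counts and medians, 158 stayed within 1.5 times the main count or within 1 SD of the main median, and 98 did not. Of 268 values of the 12 named genes, none changed direction, 195 kept their side of the threshold, 72 lost the call and 1 gained it. Settings that alter the surroundings leave the reference counts as they are and were not counted for them, the median of probes does not apply to probe counts, class medians were not computed with the scan-day block, and genes absent from the sparser design have no value where all 5 tumours or probes on both designs are needed. No paired analysis was possible because there is 1 group. The cause of these changes was not tested, apart from settings that test fewer genes.

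Leaving out each tumour in turn gave 0 to 5 members lower and 0 to 7 higher than surroundings, 0 to 3 lower and 0 to 6 higher than the reference, and 0 to 11 probes lower and 0 to 10 higher. Antigen presentation genes called ranged from 0 to 13 (surroundings) and 0 to 5 (reference), class III genes from 0 to 11 and 0 to 18. The class I median ranged from -0.03 to 0.04 and the class II median from -0.05 to 0.02. The zeros came from leaving out ARF-112, ARF-129 or ARF-104 for gene counts, and ARF-129 for probes. Without ARF-110 the surroundings counts of the lists rose to 13 and 11, and without ARF-128 the class III counts to 8 and 18. Over all genes the share called against surroundings rose as well, to 32.8% without ARF-110 and 32.5% without ARF-128 (main 22.1%). Against the reference it was 21.2% without ARF-128 (main 17.4%). Scan day as a random block gave 0 in every count.

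Against surroundings, members lower (main 5) were 2 with normexp, 1 with loess, 3 when measured in all 5 tumours, 3 with probes on both designs, 3 with surroundings within 250 kb and 2 with the whole chromosome. Of all genes tested, 5.73%, 1.47%, 9.93%, 13.9%, 13.7% and 8.91% were lower in the same order (main 12.4%). Members higher (main 5) were 1 with loess, 3 when measured in all 5 tumours, 2 with probes on both designs and 2 with the GC trend removed. Of all genes, 1.09%, 7.23%, 11.1% and 8.24% were higher there (main 9.66%). Against the reference, members lower (main 2) were 1 with normexp, 1 when measured in all 5 tumours, 4 in tumours scanned together and 5 with the GC trend removed. All genes gave 2.79%, 6.7%, 12.7% and 7.82% lower in these settings (main 8.07%). Members higher (main 4) were 2 with loess, 7 with the sparser ARF-128 array and 9 in tumours scanned together. The share of all genes moved the same way, to 5.04%, 15.3% and 16.6% (main 9.38%). Probes lower (main 9) were 3 with normexp, 2 when measured in all 5 tumours and 3 on both designs. Of all probes tested, 9.16%, 16.4% and 15% were lower there (main 19.4%). Probes higher (main 7) were 4 with loess, 3 when measured in all 5 tumours, 1 on both designs, 13 with the sparser ARF-128 array and 12 in tumours scanned together. The share of all probes moved the same way, to 8.66%, 10.4%, 11.3%, 28.8% and 31.1% (main 16.8%).

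The class I median (main 0) was 0.17 when measured in all 5 tumours, 0.13 with probes on both designs, -0.03 in tumours scanned together, -0.03 with loess, -0.02 with the GC trend removed, and -0.04, 0.03 and 0.04 with surroundings of 250 kb, 5 Mb and the whole chromosome. The class II median (main -0.01) was -0.16 when measured in all 5 tumours and -0.21 with probes on both designs. Those restrictions left 9 class I and 4 class II genes. Antigen presentation genes called against surroundings (main 8) were 1 with loess, 13 within 250 kb and 19 in tumours scanned together; against the reference (main 4) they were 1 with loess, 2 when measured in all 5 tumours, 7 with both ARF-128 arrays averaged and 8 in tumours scanned together. Class III genes called against surroundings (main 5) were 0 with loess, 9 with normexp, 9 with the sparser ARF-128 array, 10 with the mean of both, 8 on both designs and 24 in tumours scanned together; against the reference (main 9) they were 2 with loess, 24 with the sparser ARF-128 array, 14 with the mean of both and 23 in tumours scanned together. Over all genes, 2.57% were called against surroundings with loess and 55.9% in the tumours scanned together, against 22.1%. The share was 33.3% with the sparser ARF-128 array, 33% with the mean of both, 23.7% within 250 kb and 16.1% with normexp. Against the reference it was 7.98% with loess and 29.3% in the tumours scanned together, against 17.4%. With the sparser ARF-128 array and the mean of both it was 27.2% and 25.2%.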
